A study of Mus musculus with 24 samples.

Results

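Cxcl13 and 7 further genes that mark B-cell follicles were followed in retroperitoneal white adipose tissue of 24 mice, and the chemokine Cxcl13 was set beside the B-cell content of the same libraries. The 8 members (Cxcl13, Cxcr5, Ccl19, Ccl21a, Cd79a, Cd79b, Ms4a1 and Pax5) were found by symbol among the 56895 entries used, and each had 1 entry. The set was built around Cxcl13, a gene selected on its own values in the male comparisons of these libraries. For that reason the Cxcl13 values of males, and every contrast that includes them, are given as a description with no test.

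The libraries came from polyadenylated RNA of male and female C57BL/6J mice, sampled after an overnight fast, with 3 mice in each of 8 groups. The dams ate AIN-93G diet for 8 weeks before mating, with vitamin D3 at 1.0 IU/g in CTRL and at 0.0 IU/g in VDD, and on through gestation. Every dam received control diet from birth to weaning. From 6 weeks of age the offspring ate for 8 weeks either the LF diet (AIN-93M) or the HF diet, in which 45% of the energy came from fat. The groups are therefore CTRL LF, CTRL HF, VDD LF and VDD HF in males and the same 4 in females, and a library is named by its group and mouse number. The VDD offspring were themselves never fed the deficient diet, and litters were not named in the labels.

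CXCL13 is the chemokine that draws B cells, and helper T cells of the follicle, through its receptor CXCR5. In lymph nodes and in ectopic follicles it comes mainly from follicular dendritic cells and other stromal cells, and in tissues without follicles macrophages and mesothelial cells can also make it. CCL19 and CCL21 act through CCR7 and hold T cells in the neighbouring zone. CD79A and CD79B form the signalling pair of the B-cell receptor, MS4A1 is the surface protein CD20, and PAX5 is the transcription factor that keeps B-cell identity. Visceral fat depots can hold small lymphoid clusters with B cells. In bulk tissue, fewer cells of a type and less RNA per cell cannot be told apart.

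Cxcl13 lies on the plus strand at chr5:95956951-95961068 of GRCm38 (GENCODE M21), with 4 exons, and Cd79a on the plus strand at chr7:24897381-24902197, with 5 exons. Because these are the chemokine and the B-cell marker that the comparisons below turn on, the 250 bases before their RefSeq start sites (build GRCm38.p6) are printed, Cxcl13 from chr5:95956689-95956938 and Cd79a from chr7:24897247-24897496, both on the plus strand. Capitals mark the letters TATAAA, the usual core of a TATA box.
Cxcl13: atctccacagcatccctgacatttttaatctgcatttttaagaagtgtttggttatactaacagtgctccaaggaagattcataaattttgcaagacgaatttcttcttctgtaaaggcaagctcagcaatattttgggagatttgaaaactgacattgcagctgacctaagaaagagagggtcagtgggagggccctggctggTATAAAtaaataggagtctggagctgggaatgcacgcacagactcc
Cd79a: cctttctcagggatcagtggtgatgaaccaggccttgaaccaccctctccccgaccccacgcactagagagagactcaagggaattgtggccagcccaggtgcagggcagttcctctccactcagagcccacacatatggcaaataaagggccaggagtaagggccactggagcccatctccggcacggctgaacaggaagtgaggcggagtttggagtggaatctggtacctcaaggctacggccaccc
The TATAAA of Cxcl13 begins at position -46 counted from the start site. Promoters of 5 of the 8 members were matched by symbol, those of Cxcl13, Ccl19, Ccl21a, Cd79a and Pax5, and the letters TATAAA stood in that of Cxcl13 alone of the 5. Over 32851 promoters of the same length, 12.4% held TATAAA on either strand. Further motifs were searched on both strands. The octamer ATGCAAAT, bound by POU factors of B cells, stood in 526 of all promoters (1.6%), and CCCNNGGG, the core bound by EBF, in 11.8%. The NF-kappaB motif stood in 3.90%, and the vitamin D receptor's direct repeat with a spacer in 13 promoters. None of these exact letters was in the windows of the 5 members. Sites that differ from them by a letter were not searched, so a site for these factors may still be present.

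**Figure D1:**
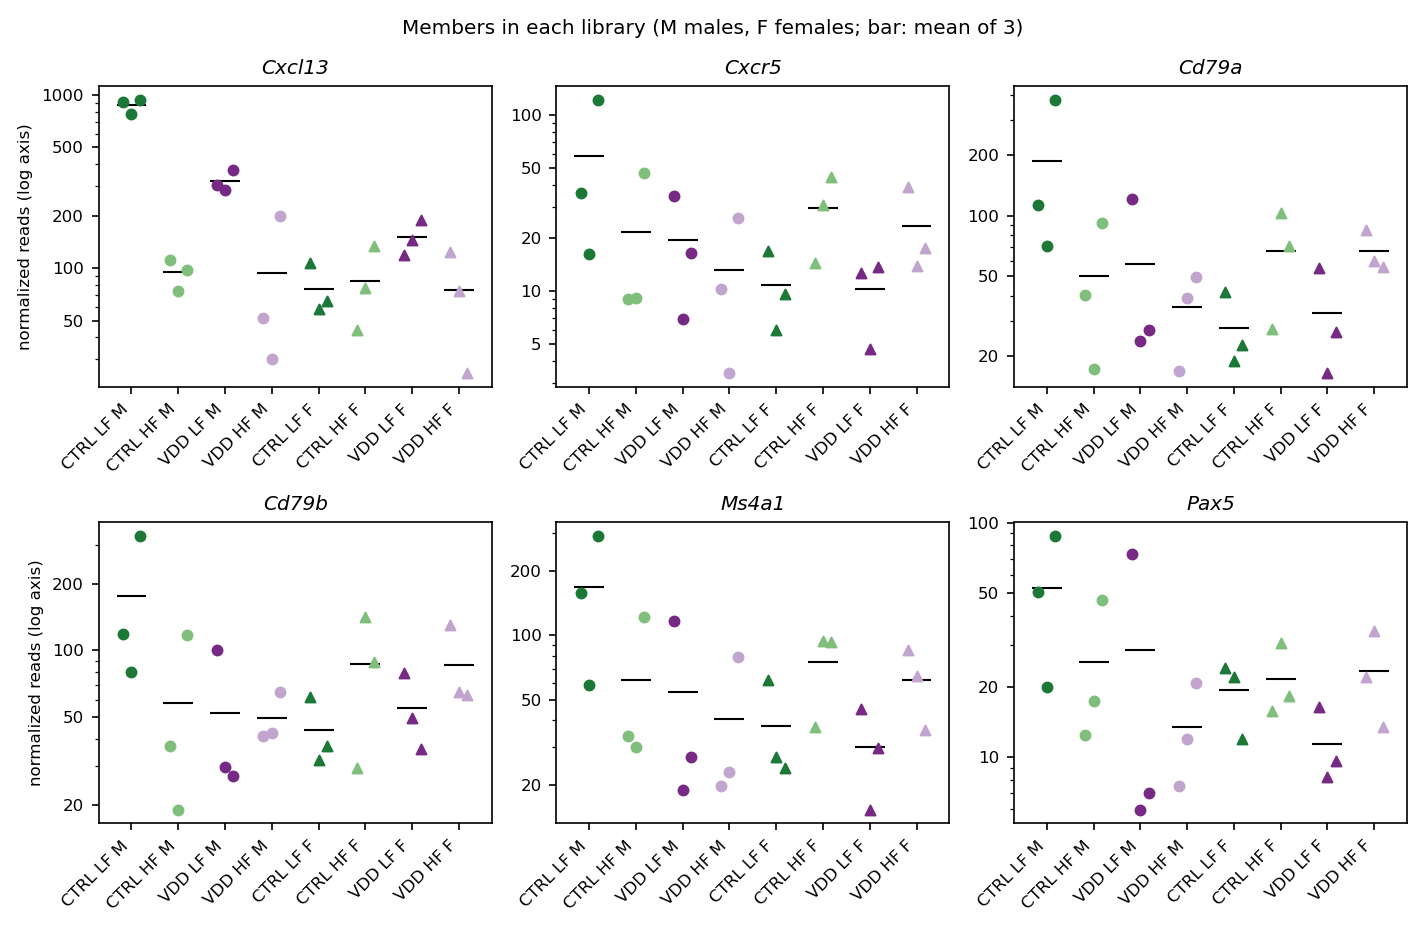
Normalized reads (log axis) of Cxcl13, Cxcr5, Cd79a, Cd79b, Ms4a1 and Pax5 in each of 24 libraries, by group, with a black line at the mean of the 3 libraries of a group. In the Cxcl13 panel the 3 CTRL LF males sit at 781 to 942 and the 3 VDD LF males at 282 to 372. All other libraries lie lower. In the Cd79a panel CTRL LF male 2296 alone reaches 379, and each group overlaps the next in the order of means, though not every other group.

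Reads per library on genes ran from 13346779 to 18484346, and all levels below are normalized reads on one scale for the 24 libraries, unless given per kb of exon. Per kb, Cxcl13 had the highest mean level of the members at 193 normalized reads per kb, above Cd79b at 53.0 and Cd79a at 45.1. Ms4a1 averaged 10.7 normalized reads per kb, Cxcr5 7.0, Ccl19 5.75 and Pax5 2.77. Cxcl13, Cd79a, Cd79b and Ms4a1 reached 10 normalized reads in all 24 libraries, Pax5 in 19, Cxcr5 in 17 and Ccl19 in 2. Ccl19 had 1 to 12 reads a library, and Ccl21a had 0 in every library, which allows up to 3 reads a library from counting error alone. No test was therefore made for Ccl19 and Ccl21a.

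The zone of T cells was thus barely measured, and both of its chemokines have near-identical copies. Of the 50-base windows of Ccl19, 52.0% also occur in another gene (Gm2564 among 4), and of those of Ccl21a 71.6% (Gm21541 and Ccl21b among 4). The authors kept reads with a single position in the genome, so reads that fit several copies equally well were not counted. How many reads were lost in this way was not measured. Cxcl13 and Cd79b shared no window with another gene, Ms4a1 shared 1.21%, Cxcr5 1.86%, Pax5 7.02% and Cd79a 8.31%. Exons of Cxcr5 overlap those of Bcl9l on the other strand, and exons of Pax5 those of Gm12462, and the sources used here do not give the strand setting of the counting.

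Cxcl13 was highest in CTRL LF males. The 3 libraries there (2287, 2293 and 2296) had 912, 781 and 942 normalized reads, a mean of 878 ± 85.9 (SD, n = 3). In VDD LF males (2078, 2302 and 2310) it had 305, 282 and 372 normalized reads, a mean of 320 ± 46.8 (SD, n = 3). These 6 libraries held the 6 highest levels of the 24, and neither group overlapped another.

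On the HF diet the males were lower. CTRL HF males (2127, 2128 and 2131) had 112, 74.5 and 97.7 normalized reads of Cxcl13, a mean of 94.9 ± 19.1 (SD, n = 3). VDD HF males (2298, 2307 and 2308) had 51.6, 29.8 and 201 normalized reads, a mean of 94.0 ± 92.9 (SD, n = 3). VDD HF male 2308 stood above all CTRL HF males, whereas the other two stood below them.

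Females had 24.8 to 189 normalized reads of Cxcl13, and HF males 29.8 to 201. CTRL LF females (2124, 2125 and 2335) had 107, 57.9 and 64.5 normalized reads of Cxcl13, and VDD LF females (2303, 2311 and 2312) had 119, 146 and 189. CTRL HF females (2290, 2291 and 2292) had 43.9, 76.9 and 134, and VDD HF females (2081, 2083 and 2121) had 125, 73.8 and 24.8. In the order of group means, CTRL LF males (878), VDD LF males (320) and VDD LF females (151 ± 35.1, SD, n = 3) came first. The other 5 groups followed with means of 74.5 to 94.9, and each of these overlapped its neighbour in the order.

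The B-cell receptor genes had another order and, in LF males, a wider spread inside groups. Cd79a had 114, 71.3 and 379 normalized reads in the CTRL LF males 2287, 2293 and 2296, a mean of 188 ± 167 (SD, n = 3), and 122, 23.8 and 27.0 in the VDD LF males. It had 40.5, 17.3 and 92.3 in the CTRL HF males and 16.9, 39.2 and 49.5 in the VDD HF males. All 4 male groups overlapped their neighbours, and CTRL LF male 2296 had the highest Cd79a of the 24 libraries.

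In females Cd79a was higher on HF than on LF in most libraries. It had 41.8, 19.0 and 22.7 normalized reads in CTRL LF, 27.4, 103 and 70.7 in CTRL HF, 55.3, 16.5 and 26.4 in VDD LF, and 85.1, 60.0 and 55.8 in VDD HF females. VDD LF female 2303 at 55.3 almost reached VDD HF female 2121 at 55.8, and these groups overlapped in the deposited scaling of their own table. CTRL HF and VDD HF females shared a mean of 67.0, with SDs of 37.8 and 15.9 (n = 3 each).

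The coefficient of variation of Cxcl13 was 9.78% in CTRL LF males, against 88.7% for Cd79a in those libraries. Ms4a1 had 158, 58.8 and 291 normalized reads there and Cd79b 119, 80.1 and 328, with the highest value in 2296 for both. Cxcr5 had 36.1, 16.3 and 122 and Pax5 50.8, 20.0 and 87.6, so the 5 B-cell members ranked the 3 mice in 1 order. Cxcl13 had that order too, with a highest and lowest level of 942 and 781. Normalized reads of Cxcl13 divided by those of Cd79a gave 2.48 in 2296 and 10.9 in 2293. The ratio ranged from 2.49 to 13.8 in VDD LF males, from 1.06 to 4.32 in CTRL HF males and from 0.761 to 4.05 in VDD HF males.

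In females the ratio of Cxcl13 to Cd79a was 2.56 to 3.05 in CTRL LF and 0.748 to 1.89 in CTRL HF, groups that did not overlap. It was 2.16 to 8.86 in VDD LF and 0.444 to 1.47 in VDD HF, which did not overlap either. The lower ratios on HF went with a higher mean of Cd79a in CTRL females, whose mean of Cxcl13 was 76.5 on LF and 84.9 on HF, and in VDD females with both a higher mean of Cd79a and a lower mean of Cxcl13. These ratios are descriptions of single libraries and were not tested.

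**Figure D2:**
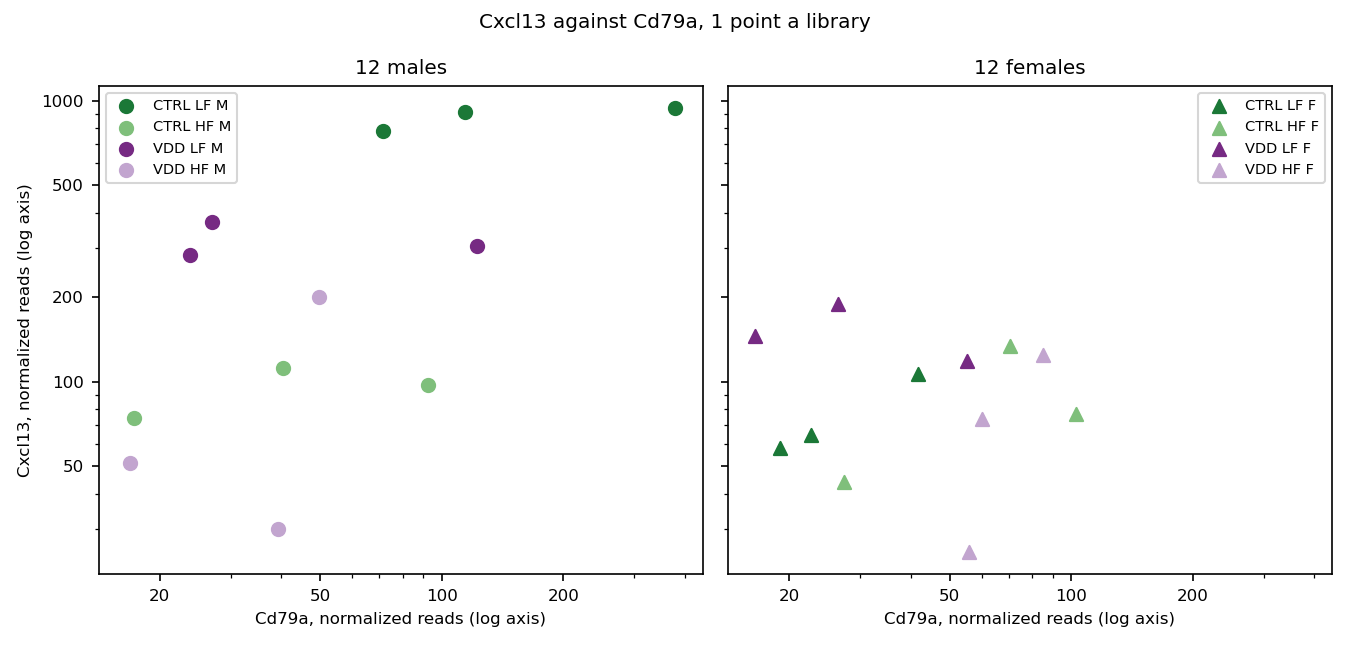
Cxcl13 against Cd79a, both as normalized reads on log axes, 1 point for each of 24 libraries, with colour for the group and separate panels for males and females. The CTRL LF males lie level at 781 to 942 of Cxcl13 while their Cd79a runs from 71.3 to 379, and the 12 females form no line.

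The maternal diet was compared first, in offspring on LF. In CTRL LF vs. VDD LF males, Cxcl13 differed by -1.45 on the log2 scale (VDD minus CTRL), which is the difference that chose it and carries no test. The 5 B-cell members were lower in VDD in every case, by -1.31 for Cxcr5 to -1.79 for Ms4a1, with standard errors of 0.68 to 0.99. Their median difference was -1.72, and it was -1.04 without CTRL LF male 2296 and -2.47 without VDD LF male 2078. None was called by limma, with adjusted p of 0.691 to 0.821, and at an unadjusted p under 0.05 there was 1, Cd79b (-1.72, limma, adjusted p = 0.691). Across all 15438 genes tested 0% were called and 6.79% had such a p.

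Cd79a shows how those differences were made up. The VDD LF male 2078 had 122 normalized reads, more than the CTRL LF males 2287 and 2293, while 2302 and 2310 had 23.8 and 27.0. Ms4a1 at 117 and Pax5 at 73.3 were likewise highest in 2078 of the VDD LF males. Cxcl13 in 2078 was 305, between the levels of the other two VDD LF males, so within that group it did not follow the B-cell genes.

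In CTRL LF vs. VDD LF females, Cxcl13 was tested, since no female value chose it. All 3 VDD libraries (119 to 189 normalized reads) stood above all 3 CTRL libraries (57.9 to 107), a difference of 1.00 on the log2 scale (SE 0.29) with an unadjusted p under 0.05 by limma. After adjustment over the 16046 genes tested it did not pass (limma, adjusted p = 0.391), and 0% of those genes were called while 12% had an unadjusted p under 0.05. Cxcl13 was the single member under 0.05 there, and the median of the 5 B-cell members differed by -0.07. The Cxcl13 difference stayed between 0.83 and 1.27 when any single library was left out.

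On HF, the Cxcl13 levels of the maternal groups overlapped in both sexes. Between CTRL HF and VDD HF males the difference was -0.47, or -1.24 without VDD HF male 2308 and 0.10 without VDD HF male 2307. The median over the 5 B-cell members was -0.60, from -1.13 without VDD HF male 2308 to 0.12 without CTRL HF male 2131. In females the Cxcl13 difference was -0.31 (SE 0.65, limma, adjusted p = 0.852) and the B-cell median 0.08. No tested member was called or had an unadjusted p under 0.05 in either comparison, by limma or by limma-voom. Over all genes the shares were 0% called and 5.31% under 0.05 in males (16013 tested), and 0% and 16.7% in females (16480 tested).

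The offspring's diet was compared next. Cxcl13 differed by -3.22 on the log2 scale (HF minus LF) in CTRL LF vs. CTRL HF males and by -2.21 in VDD LF vs. VDD HF males, again as a description, and in both pairs the LF and HF libraries did not overlap. In the CTRL males, 3 B-cell members had an unadjusted p under 0.05: Cd79a (-1.84, SE 0.67), Cd79b (-1.72, SE 0.66) and Ms4a1 (-1.47, SE 0.63). With limma's adjusted p of 0.193 to 0.251 none was called, against 0.0578% of 15583 genes called and 18.8% under 0.05. The median of the 5 was -1.47, or -0.95 without CTRL LF male 2296 and -2.11 without CTRL HF male 2131.

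In VDD LF vs. VDD HF males the median difference of the B-cell members was -0.27. That median turned to 0.53 without VDD LF male 2078, the library with the high Cd79a. No B-cell member was called (limma, adjusted p of 0.689 to 0.899) or had an unadjusted p under 0.05. Over all 15965 genes 0.0752% were called and 25.9% had such a p. In those 6 libraries the levels of Cxcl13 did not overlap between the diets, while those of every B-cell member did. Cxcl13 was selected on male values, and the B-cell members were chosen with earlier results of these data known, so this is a description only. The share of all genes without overlap was not counted.

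In females on HF the B-cell members had the opposite sign, and Cxcl13 in CTRL females had almost none. In CTRL LF vs. CTRL HF females Cxcl13 differed by 0.037 (SE 0.42, limma, adjusted p = 0.968), while Cxcr5 differed by 1.34 (SE 0.52, adjusted p = 0.142) and Cd79a by 1.11 (SE 0.52, adjusted p = 0.206). In VDD LF vs. VDD HF females Cxcl13 differed by -1.26 (SE 0.57, limma, adjusted p = 0.837) and Cd79a by 1.15 (SE 0.48, adjusted p = 0.837). The Cxcl13 difference was -0.61 without VDD HF female 2121 and -1.77 without 2081. No member was called in either comparison, and 1 member had an unadjusted p under 0.05 in each, Cxcr5 in the former and Cd79a in the latter. The shares over all genes were 0% called and 28.8% under 0.05 in CTRL females (16563 tested), and 0% and 5.05% in VDD females (15923 tested). The medians of the B-cell members were 0.97 and 1.06.

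**Figure D3:**
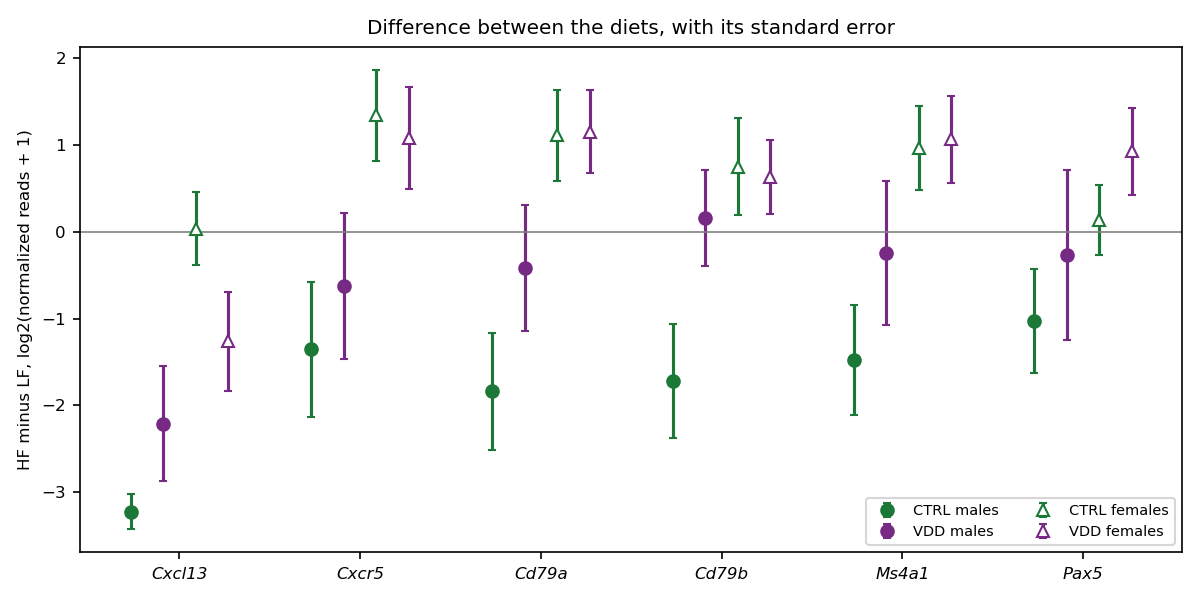
Log2 difference between HF and LF (HF minus LF) of Cxcl13 and the 5 tested B-cell members in CTRL males, VDD males, CTRL females and VDD females, with bars of 1 standard error from limma, and n = 3 libraries in each group. The male differences of Cxcl13 (-3.22 and -2.21) lie furthest below 0, and all 5 B-cell members lie above 0 in females.

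Whether the offspring's diet acted differently in the sexes was tested on the B-cell members in 1 fit of the 24 libraries (diet by sex, female minus male). The difference between the sexes was 2.26 for Cd79a (SE 0.72, limma, adjusted p = 0.355), 2.21 for Cxcr5 (SE 0.80, adjusted p = 0.427) and 1.88 for Ms4a1 (SE 0.74, adjusted p = 0.456). Cd79b followed with 1.47 (SE 0.66, adjusted p = 0.528) and Pax5 with 1.18 (SE 0.73, adjusted p = 0.672). Of the 5, 4 had an unadjusted p under 0.05 and none passed over all 18414 genes, of which 0.0272% were called and 8.92% had such a p. Their median was 1.88 (1.49 to 2.2 without single libraries).

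Over all 24 libraries the 5 B-cell members differed by -0.05 to 0.12 between HF and LF (HF minus LF, limma, adjusted p of 0.863 to 0.986). They were lower in VDD than in CTRL by -0.28 to -0.73 (adjusted p of 0.239 to 0.647) and lower in females than in males by -0.023 to -0.36 (adjusted p of 0.515 to 0.97). None of the 3 contrasts called any of the 5 or gave one an unadjusted p under 0.05 by limma. Over all genes, 9.43% were called and 39.7% were under 0.05 for the offspring's diet, 0.103% and 22.9% for the mother's diet, and 7.26% and 33% for sex. Cxcl13 differed by -1.66 between HF and LF and by -1.27 between females and males, contrasts that include the male values.

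The remaining interactions called none of the 5 B-cell members and gave none an unadjusted p under 0.05. For the maternal by offspring diet interaction in females, Cxcl13 had a value of -1.32 (SE 0.79, limma, adjusted p = 0.789), and it was -0.69 without VDD HF female 2121 and -1.83 without 2081. The shares over all genes were 0% called and 6.36% under 0.05 for that interaction, and 0% and 4.11% for the same in males. They were 0% and 6.62% for maternal diet by sex, and 0% and 7.71% for the difference of the maternal by offspring diet interaction between the sexes.

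Among themselves, the B-cell members moved as 1 group from library to library. After subtraction of group means, log2 levels of Cd79a and Cd79b correlated over the 24 libraries with r = 0.928, those of Cd79a and Ms4a1 with r = 0.907, and the lowest r among the 5 was 0.66, for Cxcr5 and Pax5. Cxcl13 correlated less with each of them, from r = 0.238 with Pax5 and 0.312 with Cd79a to 0.534 with Ms4a1 and 0.568 with Cxcr5. These are descriptions over 24 libraries that share their scaling, and Pax5 and Cxcr5 have few reads.

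Across the 12 females the levels of Cxcl13 and Cd79a showed no relation that passed a test (Pearson's r = -0.001, permutation p = 0.997; Spearman's rho = 0.014, permutation p = 0.974). The permutations ran over all 12 females regardless of group, so r and p mix differences between groups with those between mice. Of the 6 relations with Cxcl13 in females, r ran from -0.166 with Pax5 to 0.337 with Ccl19, with Benjamini-Hochberg adjusted permutation p of 0.576 to 0.997 over the 12 relations computed in both sexes. Without the 2 females farthest from the median of Cxcl13, r with Cd79a was 0.299 (permutation p = 0.39) and r with Cd79b, otherwise 0.227, was 0.595 (permutation p = 0.0717). In males LF and HF libraries formed separate clusters of Cxcl13, and LF males again split by the mother's diet, so no pooled r is given. After subtraction of group means, r in males was 0.245 with Cd79a, 0.472 with Ms4a1 and 0.558 with Cxcr5, against 0.438, 0.68 and 0.648 in females.

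**Figure D4:**
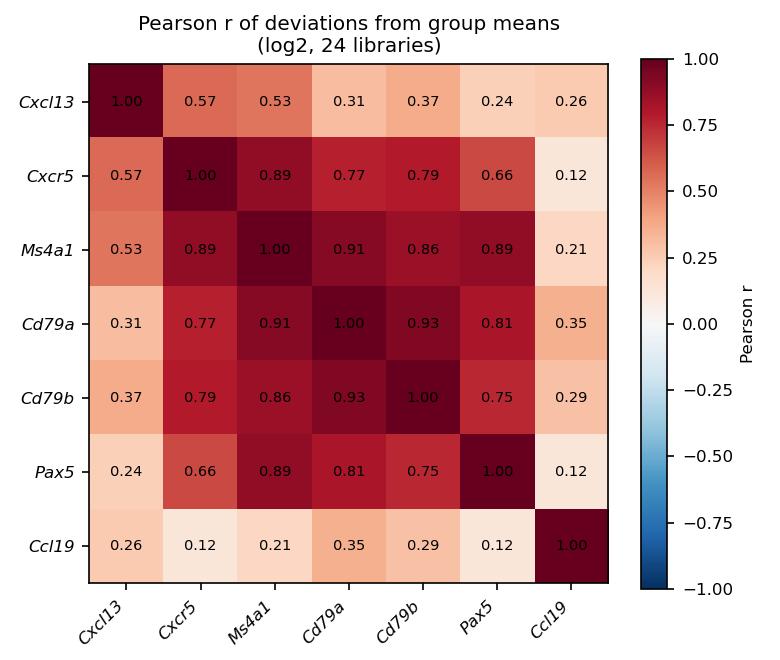
Pearson's r between each pair of the 7 members with reads, over 24 libraries, from log2 levels after subtraction of group means. The 5 B-cell members form a block from 0.66 to 0.928, and Cxcl13 lies outside it at 0.238 to 0.568.

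The genes nearest to Cxcl13 in level held no marker of the B-cell list. This ranking on levels is a description only. It includes the male values that chose Cxcl13, with LF males far above the rest, and mixes differences between groups with those between mice. Among 18408 other genes, the highest r over 24 libraries was that of Tmem62 (0.844), a membrane protein, followed by Yy1 (0.83), a transcription factor, Ggps1 (0.815), an enzyme of isoprenoid synthesis, Wdr36 (0.805) and Chil3 (0.803), a chitinase-like protein of macrophages. After subtraction of group means they were Clec4n (0.821), a lectin of myeloid cells, Igkv4-59 (0.803), an immunoglobulin kappa variable gene, Dnase2a (0.722), a lysosomal nuclease, Naip2 (0.718) and Lst1 (0.717). Igkv4-59 had a median of 1.27 normalized reads and its highest, 147, in VDD HF male 2308, the library with the high Cxcl13 of its group. The part of that library in this r was not tested. For Cd79a the genes nearest in level included Pou2af1 (0.924), a coactivator of B cells, Siglecg (0.891), Iglc3 (0.879) and Spib (0.872). After subtraction of group means they included Siglecg (0.895), Pou2af1 (0.894), Iglc3 (0.894) and H2-DMb2 (0.876).

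A wider list of 26 B-lymphocyte genes, which holds the B-cell members, had medians of the same sign as theirs in the comparisons given next. In VDD LF vs. VDD HF males the signs differed. There 15 of 24 list genes were higher on HF (median 0.058), while the median of the members was -0.27. In CTRL LF vs. VDD LF males all 25 tested were lower in VDD, with a median of -1.47, and 5 had an unadjusted p under 0.05, where 6.79% of all genes did. In CTRL LF vs. CTRL HF males 23 of 25 were lower on HF (median -1.07), and in CTRL and VDD females 19 of 22 and 22 of 23 were higher on HF (medians 0.85 and 0.93). For diet by sex 24 of 25 were positive with a median of 1.20, against 0.006 over all genes, 11 had an unadjusted p under 0.05, where 8.92% of all genes did, and none was called. The summed level of the list was highest in CTRL LF male 2296 (29035 normalized reads) and CTRL HF female 2291 (30641), whose part in these medians was not tested. Most of both sums was the single gene Ighm, which had 29123 normalized reads in 2291. The single gene called in any of the 16 comparisons and contrasts was Ralgps2, a guanine nucleotide exchange factor, higher in females (0.64, SE 0.16, limma, adjusted p = 0.00853).

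The most abundant B-cell transcript, Ighm, the heavy chain of IgM, did not mirror Cd79a. It had 25171 normalized reads in CTRL LF male 2296 and 29123 in CTRL HF female 2291, and 342 to 8500 in the other 22 libraries. VDD HF males had 5350, 5534 and 8500 and CTRL HF males 1750, 2973 and 2761, groups that did not overlap (1.36, SE 0.26, limma, adjusted p = 0.94). Jchain, which joins secreted IgM, was likewise highest in 2296 and 2291, at 3350 and 2950 normalized reads. Jchain, and Ighd in the plot, were picked after their values were seen.

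**Figure D5:**
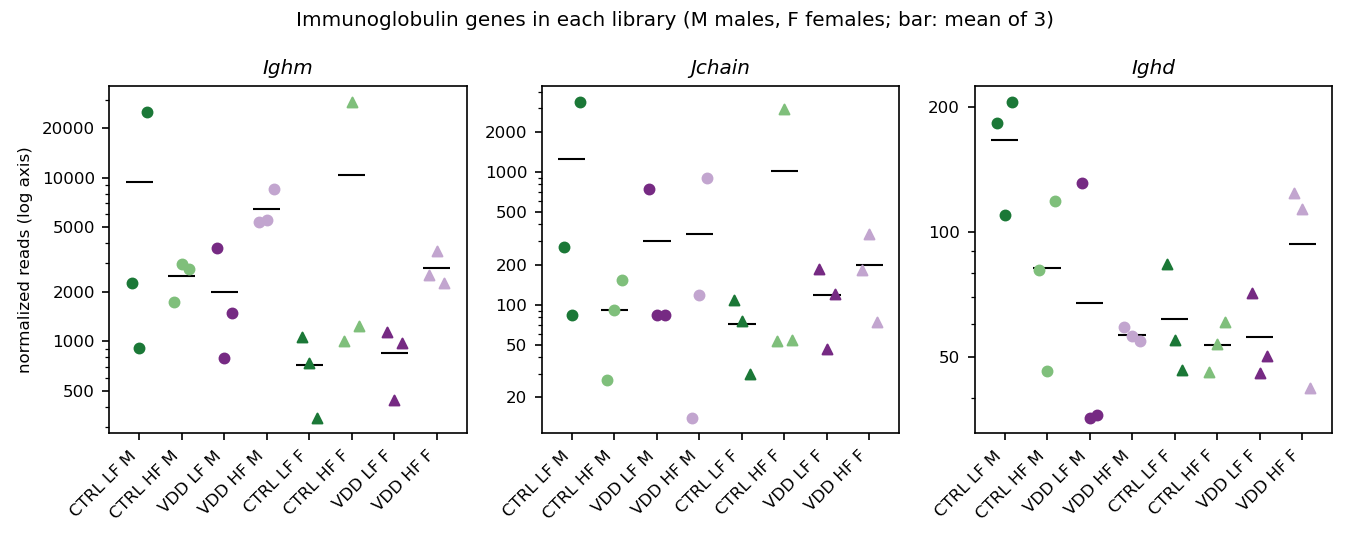
Normalized reads (log axis) of Ighm, Jchain and Ighd in each of 24 libraries, by group, with a black line at the group mean (n = 3). CTRL LF male 2296 and CTRL HF female 2291 stand highest in Ighm, at 25171 and 29123, and in Jchain, at 3350 and 2950.

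Genes of plasma cells, which secrete antibody, had medians further from 0 than the B-lymphocyte list for the offspring's diet in CTRL mice and for diet by sex. On HF all 11 tested were lower in CTRL males (median -2.07) and 10 of 11 were higher in CTRL females (median 1.54). Their summed level was 18985 normalized reads in CTRL LF male 2296 and 20635 in CTRL HF female 2291, while the other CTRL HF females had 687 and 1257, below the CTRL LF females at 3134 to 4731. The part of those libraries in the medians was not tested. For diet by sex all 13 were positive (median 2.75) and 7 had an unadjusted p under 0.05, against 8.92% of all genes, with none called. Irf4, a transcription factor of plasma cells that adipocytes also express, was the single one called in any contrast, lower on HF over 24 libraries (-2.81, limma, adjusted p = 4.09e-06). It had 9180 normalized reads in VDD LF male 2302, where the whole plasma-cell list summed to 9669. The part of Irf4 in the other sums was not tested. T-lymphocyte genes were positive for diet by sex in 13 of 13 (median 1.14), 6 of them under an unadjusted p of 0.05. Their summed level was 2671 normalized reads in VDD HF female 2081 and 161 to 779 in the other libraries, and the part of 2081 in the list's values was not tested. Trac, the constant chain of the T-cell receptor and highest in 2081, was called higher in females (1.30, SE 0.32, limma, adjusted p = 0.00832).

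Stromal and chemokine genes of lymphoid tissue gave few calls, and those of genes besides Cxcl13 were all between diets or sexes over the 24 libraries. Cxcl13 stands in these lists but is left out of their calls, since male values chose it. Of the lymphoid chemokines and receptors besides Cxcl13, Cyp7b1, which makes the follicle-guiding oxysterol, was called, higher in females (1.67, limma, adjusted p = 2.44e-05). Cxcl12, the stromal ligand of CXCR4, was lower in VDD by -0.63 (SE 0.13, limma, adjusted p = 0.0148), which missed the call. Of 20 tested genes of follicle and lymphoid stroma, besides Cxcl13, Coch (2.46, adjusted p = 0.000544) was called higher and Mfge8 (-0.89, adjusted p = 5.87e-05), a bridging protein for dying cells that follicular dendritic cells make, was called lower in females by limma. In CTRL LF vs. VDD LF males 15 of 19 of these genes, Cxcl13 among them, were lower in VDD (median -0.40), and in CTRL LF vs. CTRL HF males 13 of 19 were higher on HF (median 0.14).

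The vessels of lymphoid tissue were read through 2 small lists. Of high endothelial venule genes, Cd34 was called, higher on HF (0.96, SE 0.21, limma, adjusted p = 0.00206), and Glycam1, a ligand of L-selectin in lymph node venules, reached at most 7.87 normalized reads. All 5 lymphatic genes tested were lower in VDD LF than CTRL LF males (median -1.06), all 6 were lower in VDD HF than CTRL HF females (median -1.20) and none was called there. In the latter comparison 9 of 12 mesothelial genes were lower as well (median -1.95), as were all 4 adrenal genes tested (median -2.40) and both kidney genes tested (median -4.24), and their part in it was not tested. Mmrn1 (4.16) and Prox1 (2.11) were called higher in females by limma.

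Markers of cells that can make CXCL13, and of neighbouring tissue, were set beside the groups. All 14 macrophage genes were lower in VDD LF than CTRL LF males (median -0.60), but 13 of 14 were higher on HF in CTRL males (0.53) and 13 of 14 in VDD males (0.85), where Cxcl13 was lower. Summed macrophage levels were 17321 to 32216 normalized reads in CTRL LF males, 9463 to 24277 in VDD LF males, 23169 to 37378 in CTRL HF males and 17948 to 51431 in VDD HF males. The highest sum was in VDD HF male 2308, the library with the high Cxcl13 of that group (201). Summed mesothelial levels were 2547 to 5928 in CTRL LF males and 400 to 18314 in VDD LF males, and all 12 mesothelial genes were lower in VDD in that comparison (median -0.89). The part of these cells in the Cxcl13 values was not tested.

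The adipocyte list was high in every library, with summed levels of 350644 to 969533 normalized reads, and RNA of muscle, kidney and adrenal gland was uneven. Summed muscle genes were at 242, 50914 and 1047189 normalized reads in the VDD LF males 2078, 2302 and 2310, whose Cxcl13 was 305, 282 and 372. Summed kidney genes reached 9751 in VDD LF female 2303, whose Cxcl13 of 119 was the lowest of its group. Summed adrenal genes were at 10436 and 33214 in the CTRL HF females 2290 and 2292, whose Cxcl13 was 43.9 and 134, and at 19234 in VDD HF female 2121, whose Cxcl13 of 24.8 was the lowest of the 24. In the other libraries they were at 389 to 2180, and Star, Cyp11a1 and Hsd3b1, enzymes and a carrier of steroid synthesis, were called higher in females by limma. The word renal stands in the names of 6 libraries, in 6 of the 8 groups, and no source used here explains it. The word was made a term in the fit over 24 libraries and in the comparisons without HF females, whose libraries do not carry it. No tested member was called with the term, and none was called without it. Rag1, Rag2, Dntt, Igll1 and Ptcra, markers of developing lymphocytes, had at most 24 reads each over all libraries.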

How the data were processed

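Sickle trimming and STAR 2.7.0d alignment, with uniquely placed reads kept, were done by the authors, who added transcripts assembled with Cufflinks 2.2.1 to GENCODE, counted with featureCounts 1.6.1 and normalized with DESeq2; the submitters' processing notes name mm10. The authors deposited 8 tables, 1 for each comparison, of log2(normalized reads + 1) for 6 libraries. The fold changes and p-values deposited beside them are the authors' own and were not used. Of 56899 entries, 4 with a duplicated name were left out. Size factors differ between tables, so reads were recovered (100% of values whole within 0.02) and scaled together for levels, correlations and contrasts over 24 libraries.

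Differences were fitted with limma 3.58.1 (eBayes with trend, R 4.3.3), each comparison on its own deposited log2 values, over genes that reached 10 normalized reads in 3 or more libraries, of 6 or of 24. A test on counts had been planned. limma was used in its place because the deposited values are log2, although reads could be recovered from them. A call needed a p under 0.01 after Benjamini-Hochberg adjustment with the fold over 1.5 or under 0.66. The calling was tried on simulated data, but how often it finds differences of the members' size and level is not reported here. In CTRL LF vs. CTRL HF females limma called 0 of 16563 genes. For the same comparison the paper lists genes both up and down at an adjusted p under 0.01, by the authors' own test. An absent call is therefore no evidence that a gene did not differ. Tests are two-sided. Permutation tests used 100000 resamples. The +1 understates differences of low genes. Alternatives were limma-voom on recovered reads, a pseudocount of 10, other scalings and filters, and each library left out.

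The members and gene lists were chosen with earlier results of these data known. Named besides the members were the 5 genes most correlated with Cxcl13 and with Cd79a, as levels and as deviations, and, of each list, the 3 most abundant per kb and every called gene; the text keeps to those that bear on the members. A gene that the rule names is not reported here. Tables and plots were made in Python 3.11.15 (scipy 1.17.1, pandas 2.3.3, numpy 2.4.6, matplotlib 3.10.9). Litters were not named in the labels, so p-values measure the spread between these mice.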

Additional observations from a re-analysis of the deposited data

Results flagged for a closer look

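Cxcl13 differed in opposite directions between the sexes under the same contrast of maternal diet on LF. Every VDD LF male was below every CTRL LF male (-1.45 on the log2 scale), and every VDD LF female was above every CTRL LF female (1.00), so that the effects lay 2.455 apart on the log2 scale. The difference between the sexes was not tested, because the male values chose the gene. The female difference did not pass adjustment (limma, adjusted p = 0.391), where 12% of all genes had an unadjusted p under 0.05. How many other genes have such opposite groups without overlap was not counted. Groups of 3 libraries are too small for the check of single libraries that stand far from their group.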

How the results depend on the processing

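Leaving aside Cxcl13 wherever male values enter, which carries no test, no tested member was called under any alternative run in the 16 comparisons and contrasts. Among the tested values, 668 recomputed values kept their sign and their side of the threshold and 27 changed sign. Cxcl13 in CTRL LF vs. CTRL HF females was -0.04 by limma-voom and -0.36 to 0.44 with 1 library left out at a time. In CTRL HF vs. VDD HF females Cxcl13 ranged from -0.81 to 0.33 in the same way, and Pax5 in CTRL LF vs. CTRL HF females from -0.17 to 0.33. Cd79a for HF minus LF over 24 libraries was -0.024 with a pseudocount of 10, -0.02 by limma-voom and -0.14 to 0.20 with 1 library left out. In the 12 females, r of Cxcl13 with Ccl19 was -0.044 without the 2 farthest libraries, and r with Cd79a was 0.299 without them and 0.006 with a pseudocount of 10; the cause was not tested. By limma-voom the members with an unadjusted p under 0.05 differed in 4 of the 16: Cxcr5 dropped out in CTRL LF vs. CTRL HF females and Cd79b for diet by sex, and Cxcl13 in VDD LF vs. VDD HF females and Pax5 for VDD minus CTRL came in.

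The term for the word renal in library names was chosen after seeing the data. No paired analysis was possible because the columns of the tables carry mouse numbers, not the replicate numbers of the labels. Cxcr5, Pax5 and Ccl19 rest on few reads, and intervals and floors for them cover counting error only.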
